A study of Homo sapiens with 12 samples.

Results

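Time-restricted feeding (TRF) medium was compared with normal medium in cells that received cisplatin (DDP) on both sides, in 6 of the 12 sequenced samples: TRF+DDP (3 samples) against DDP (3 samples). The samples were chosen by their labels and no measured value was used. Every sample, CON and TRF included, was A549/DDP, a cisplatin-resistant derivative of A549, a human lung adenocarcinoma line, so the comparison describes 1 line. The study calls the 3 samples of a group biological replicates, and how they were kept apart is not described. The line is maintained in DDP to keep its resistance, and the methods do not say whether this was withdrawn before the experiment, so "without DDP" means here that no DDP was given as a treatment. Normal medium was RPMI-1640 with 2 g/L glucose and 10% fetal bovine serum. TRF cells had it for 6 h of each 24 h cycle, and then serum-free, glucose-free medium for 18 h, with washes at each change. CON and TRF, the matching pair without DDP (3 samples each), are used only to ask whether the medium effect differed when no drug was given. The study gives a DDP dose and a treatment time beside its PCR of the same groups, but not separately for the sequenced RNA, nor the point of the feeding cycle at sampling.

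Serum supplies growth factors and insulin-like signals, and glucose feeds glycolysis, the pentose phosphate pathway and protein glycosylation, so cells moved between full and empty medium are known to switch growth, heat shock and amino acid response genes. Cisplatin binds purine bases of DNA and forms crosslinks, which block polymerases and activate the checkpoint kinases ATM and ATR. These stabilise p53, a transcription factor whose targets halt the cell cycle (CDKN1A), start apoptosis (PMAIP1, BBC3) and limit p53 itself (MDM2).

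Values are the authors' TPM values (length-normalised transcript abundances scaled to a fixed sum), which state a gene's share of all transcripts in a sample and carry no read depth, so counting error is unknown and precision rests on the spread of 3 samples. Of 60902 genes, 13854 averaged 1 TPM or more across all 12 samples and were tested on log2(TPM + 1), a scale that understates changes of low genes. Differences are log2 differences on that scale with their standard errors (SE), TRF+DDP minus DDP unless stated, and a gene was called at a limma adjusted p under 0.05 and a fold over 1.5. Samples of 1 group correlated at Pearson's r of 0.979 to 0.981 over these genes, and DDP samples with TRF+DDP samples at 0.924 to 0.930. KRT8 and KRT18, the keratins of simple epithelia, were at 721.43 to 946.69 TPM and 554.17 to 783.56 TPM in the 6 samples, whereas the epithelial markers EPCAM, CDH1 and KRT19 stayed under 1 TPM in all 6. Of 19 leukocyte markers 15 stayed under 1 TPM in the 6 samples, with PTPRC at 0 to 0.01 TPM, of 12 fibroblast markers 10, and of 10 endothelial markers 8. The summed leukocyte level was nonetheless higher in TRF+DDP (52.8 to 59.2 TPM) than in DDP (16.1 to 17.9 TPM), most of it CD68, also a lysosomal membrane protein, at 12.1, 10.33 and 10.99 against 45.35, 50.45 and 49.39 TPM. The summed fibroblast level was 218 to 244 TPM in DDP and 73.2 to 81.8 TPM in TRF+DDP, nearly all of it FBLN1 and COL1A1.

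TRF medium changed the level of many genes in DDP-treated cells, and most of those called were lower. A TPM value cannot tell fewer cells that express a gene from less RNA in each cell. With DDP, 1631 of 13854 genes (11.8%) were higher and 2968 (21.4%) lower in TRF medium, 4599 (33.2%) in all. Samples of both groups did not overlap in 9720 genes (70.2%), 4549 of them called. At the other end, 5826 genes (42.0%) had a 95% confidence interval inside a 1.5-fold change in either direction, and the remaining 3429 genes were neither called nor bounded. The median gene moved by −0.10 and the middle 90% of genes spanned −1.32 to 0.97. TPM are shares, so this split depends on scaling: TMM-style scaling raised the median by 0.10, to 0.0049, and gave 2122 higher and 2390 lower (47.03% higher, against 35.46%). Without DDP, TRF against CON gave 1165 genes higher (8.41%) and 2375 lower (17.1%), 3540 (25.6%) in all.

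The genes called higher held 6.17% of all transcripts in DDP and 12.3% in TRF+DDP, and those called lower went from 14% to 7.03%. Chaperones and tubulins made up most of the largest gains. HSPA8, the constitutive cytosolic HSP70, measured 1035.38, 1096.46 and 1069.91 TPM in the DDP samples and 2509.93, 2533.58 and 2410.38 TPM in the TRF+DDP samples. HSPA1A, the stress-inducible HSP70, measured 313.41, 298.61 and 335.85 TPM in the DDP samples and 1705.98, 1849.24 and 1524.51 TPM in the TRF+DDP samples. For both genes each TRF+DDP sample was above each DDP sample, and the differences were 1.22 ± 0.032, adjusted p = 2.8e-11 and 2.42 ± 0.07, adjusted p = 6.0e-11. HSPA1A and HSPA1B are near-identical copies, so the split of reads between them is uncertain. HSPB1, a small heat shock protein, had 1426 ± 96.9 TPM in DDP and 2803 ± 113 TPM in TRF+DDP (SD, n = 3), and HSP90AB1 and HSP90AA1, the cytosolic HSP90 proteins, changed by 0.99 and 1.43. The tubulins TUBA1C (1.11) and TUBB4B (1.02), the metal-binding MT2A (0.60), the calcium-binding S100A11 (0.66), CDKN1A and MT-RNR1 were also among the 12 largest gains. Without TRF+DDP sample 3, MT2A was at 0.54 and short of the call. MT-RNR1, the small mitochondrial ribosomal RNA, rose (0.75), while of 13 protein-coding genes of the same genome 2 fell and none rose by limma (2 at an unadjusted p under 0.05).

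Losses were led by MT-CO3, a mitochondrially encoded subunit of cytochrome c oxidase, with 11764.25, 11898.44 and 11290.89 TPM in the DDP samples and 7300.8, 7157.01 and 7628.71 TPM in the TRF+DDP samples. TKT, transketolase of the pentose phosphate pathway, measured 2340.65, 2153.81 and 2402.14 TPM in the DDP samples and 547.08, 556.16 and 517.34 TPM in the TRF+DDP samples, a difference of −2.09 ± 0.05, adjusted p = 1.4e-11. TKT thus had the larger relative fall, with no overlap between the groups for either gene. MT-CO3 was at −0.54 under TMM-style scaling and −0.48 under quantile normalization, short of the call in both. The glycolytic enzymes ENO1 and LDHA fell from 3492 ± 111 and 1687 ± 30.3 TPM to 2060.0 ± 61.3 and 819 ± 10.7 TPM (SD, n = 3). NQO1, a quinone reductase, fell by 0.82 on the log2 scale, TMSB4X, an actin-sequestering peptide, had −1.09, and S100A4, a calcium-binding protein, −1.89. AKR1B1, an aldose reductase, alone of the 12 had a called interaction. It fell in TRF medium with DDP (−0.87 ± 0.043, adjusted p = 3.9e-09) and was at 0.036 without it, an interaction of −0.91 ± 0.061, adjusted p = 1.5e-06. The remaining losses of the 12 were MT-CYB (−0.73), HNRNPA1 (−0.90), PSAP (−0.70) and CRIP1 (−1.27).

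**Figure D1:**
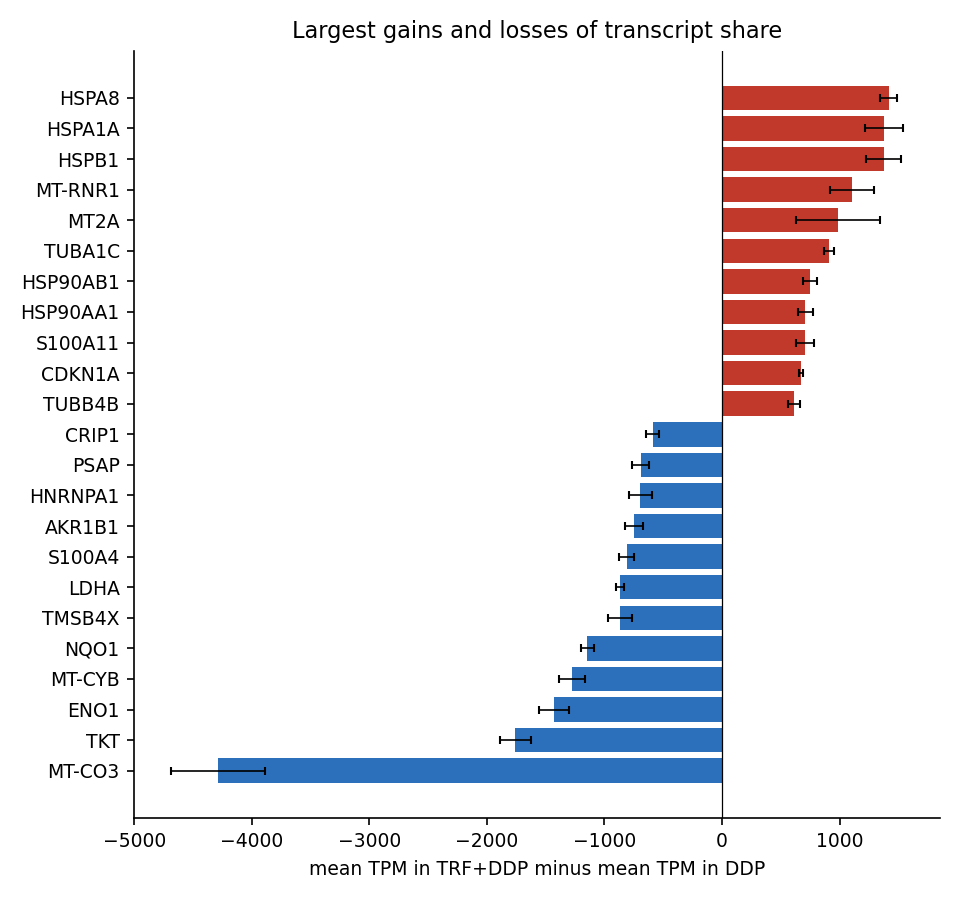
Bars give the mean TPM in TRF+DDP minus the mean TPM in DDP (x axis, TPM) for called genes among the 12 largest gains and the 12 largest losses, and whiskers the root of the summed squared SDs of both groups (n = 3 each). Chaperones (HSPA8, HSPA1A, HSPB1, HSP90AB1, HSP90AA1) lead the gains, and MT-CO3 and TKT the losses.

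Metabolic genes moved unevenly. Among 11 tested pentose phosphate and NADPH enzymes, 5 fell and 1 rose, a median of −0.55 against −0.10 over all genes. IDH2, the mitochondrial NADP-dependent isocitrate dehydrogenase, changed by −1.64 and PGD by −0.59 (−0.47 under TMM-style scaling, and short of the call there). The list's summed level was 4697 ± 198 TPM in DDP and 2116 ± 38.6 TPM in TRF+DDP. Glycolysis and glucose uptake gave 6 lower and 2 higher of 25 (24.0% and 8%, near the 21.4% and 11.8% of all genes). The higher genes were the transporters SLC2A1 for glucose (1.5 ± 0.18, adjusted p = 1.7e-05) and SLC16A1 for lactate (1.11), while PDK2, which inhibits pyruvate dehydrogenase, fell (−1.58). Of 23 TCA cycle enzymes, 3 fell (13.0%, below the 21.4% of all genes), including PC, pyruvate carboxylase (−2.09). Of 72 nuclear subunits of oxidative phosphorylation, 1 rose and 2 fell (1.39% and 2.78%, both below the shares of all genes). In the serine and one-carbon list 3 of 17 rose and 4 fell (17.65% and 23.53%, against 11.8% and 21.4% of all genes). PSAT1 (1.02), PHGDH (0.96) and the mitochondrial SHMT2 (0.92) rose. The cytosolic SHMT1 fell (−1.98 ± 0.063, adjusted p = 1.3e-10), as did MTHFD1 (−0.66), PSPH (−0.64) and MTHFD1L (−0.605). Of 13 genes of polyamine synthesis and control 3 rose and 1 fell (23.1% and 7.69%), with a median of 0.10. The largest rise was that of ODC1, the rate-limiting enzyme of the synthesis. ODC1 measured 35.08, 34.38 and 33.29 TPM in the DDP samples and 230.11, 225.09 and 237.84 TPM in the TRF+DDP samples, and all 3 TRF+DDP samples lay above the DDP samples (2.72 ± 0.051, adjusted p = 3.8e-12). SRM, spermidine synthase, rose by 1.46 and SAT1 by 1.23, and AZIN2 fell (−1.95).

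Genes of the translation apparatus were partly higher and partly not called. None of the 78 cytosolic ribosomal protein genes was called by limma at the fold threshold, with a median of 0.12 and a summed level of 216034 ± 1617 TPM in DDP and 228541 ± 3199.5 TPM in TRF+DDP. At an unadjusted p under 0.05, 46 were higher and 14 lower. Of 54 genes of tRNA modification and processing, 18 rose (33.3%, against 11.8% of all genes) and 1 fell (median 0.35), among them the dihydrouridine synthase DUS3L (1.68) and POP1, a subunit of RNase P (1.37). Of 36 initiation factors 7 rose (19.4%, against 11.8% of all genes), such as EIF5 (1.38), and 2 fell (5.56%, against 21.4%), EIF4G3 (−1.68) and EIF4B (−1.27). TMM-style scaling gave 16 higher for this list. Of 14 tubulin genes tested, 8 rose (57.1%) and none fell at the limma thresholds, a median of 0.89. TUBB2A measured 37.52, 34.78 and 34.4 TPM in the DDP samples and 140.26, 150.42 and 148.71 TPM in the TRF+DDP samples, and TUBB3 185.3, 174.91 and 182.29 TPM in the DDP samples and 642.9, 610.2 and 597.62 TPM in the TRF+DDP samples. Both had higher values in every TRF+DDP sample (2.01 ± 0.051, adjusted p = 1.9e-11, and 1.76 ± 0.041, adjusted p = 1.2e-11). Tubulin genes are close paralogs, and reads may be split between them. At an unadjusted p under 0.05, 12 of the 14 were higher and 2 lower.

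Among genes ranked by fold (called, at least 10 TPM in the higher group, no overlap), ranks 11 to 25 of the rises held genes of different kinds. KRT15, a basal keratin, measured 1.22, 0.91 and 0.79 TPM in the DDP samples and 18.23, 16.59 and 15.47 TPM in the TRF+DDP samples (3.17 ± 0.11, adjusted p = 3.5e-10). TMEM40, a membrane protein, measured 1.3, 1.3 and 1.69 TPM in the DDP samples and 19.95, 16.33 and 19.68 TPM in the TRF+DDP samples, and PGF, placental growth factor, 5.5, 5.22 and 4.94 TPM in the DDP samples and 39.96, 43.13 and 40.43 TPM in the TRF+DDP samples. In each of these 3 genes every TRF+DDP sample exceeded every DDP sample. TMEM40 and PGF also had a positive interaction (1.85 and 1.01), that is, a larger rise with DDP than without. ALOXE3, an epidermal lipoxygenase, rose by 3.13, CATSPER1, a sperm cation channel subunit, by 2.84, and KLF4, a zinc-finger factor, by 2.74. RNA5-8SN3 and RPL21P134, also in these ranks (3.06 and 2.58), are a ribosomal RNA and a pseudogene whose reads cannot be assigned with certainty.

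The falls of ranks 11 to 25 held metabolic enzymes, adhesion molecules and secreted guidance cues. SULT2B1, a cholesterol sulfotransferase, measured 21.13, 18.16 and 20.47 TPM in the DDP samples and 1.69, 0.86 and 1.22 TPM in the TRF+DDP samples (−3.23 ± 0.15, adjusted p = 2.9e-09). CAMK1D, a calcium/calmodulin-dependent kinase, measured 22.82, 22.92 and 21.5 TPM in the DDP samples and 1.62, 1.36 and 1.57 TPM in the TRF+DDP samples (−3.22 ± 0.094, adjusted p = 6.0e-11). The groups did not overlap for either. ELF3, an epithelial ETS factor, fell to 0.680 ± 0.403 TPM from 14.3 ± 1.05 TPM, BCO1, which cleaves beta-carotene, changed by −3.21, and SLIT3, a ligand of ROBO receptors, by −3.05. AKR1C3, an aldo-keto reductase and the most abundant of this set, had 337 ± 16.4 TPM in DDP and 45.7 ± 0.540 TPM in TRF+DDP. BCAM, a laminin receptor, changed by −2.78, FARP1, a Rac exchange factor, by −2.76, PDGFD, a PDGF ligand, by −2.79, and the secreted CHI3L2 and CCN5 by −2.78 and −3.13. GACAT2, a long noncoding RNA, TMEM37, PCBP3 and TRAPPC9 completed these ranks, with −3.32, −2.97, −2.90 and −2.97.

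The interaction asks whether the medium effect with DDP differed from the effect without it, as (TRF+DDP minus DDP) minus (TRF minus CON). It was called in 1845 genes (13.3%), positive in 825 (5.95%) and negative in 1020 (7.36%). Of the 4599 genes called with DDP, 2428 (52.8%) were also called in the same direction without DDP, and these are 68.6% of the calls without DDP. Another 2142 were called with DDP and not without, but the interaction was called in 858 of these. The 2 effects rest on separate samples, and across the 13854 genes their Pearson correlation was 0.69 (Spearman 0.70), given as a description because genes are not independent replicates. Opposite calls were rare: 11 genes rose with DDP and fell without it, and 18 fell with DDP and rose without it.

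**Figure D2:**
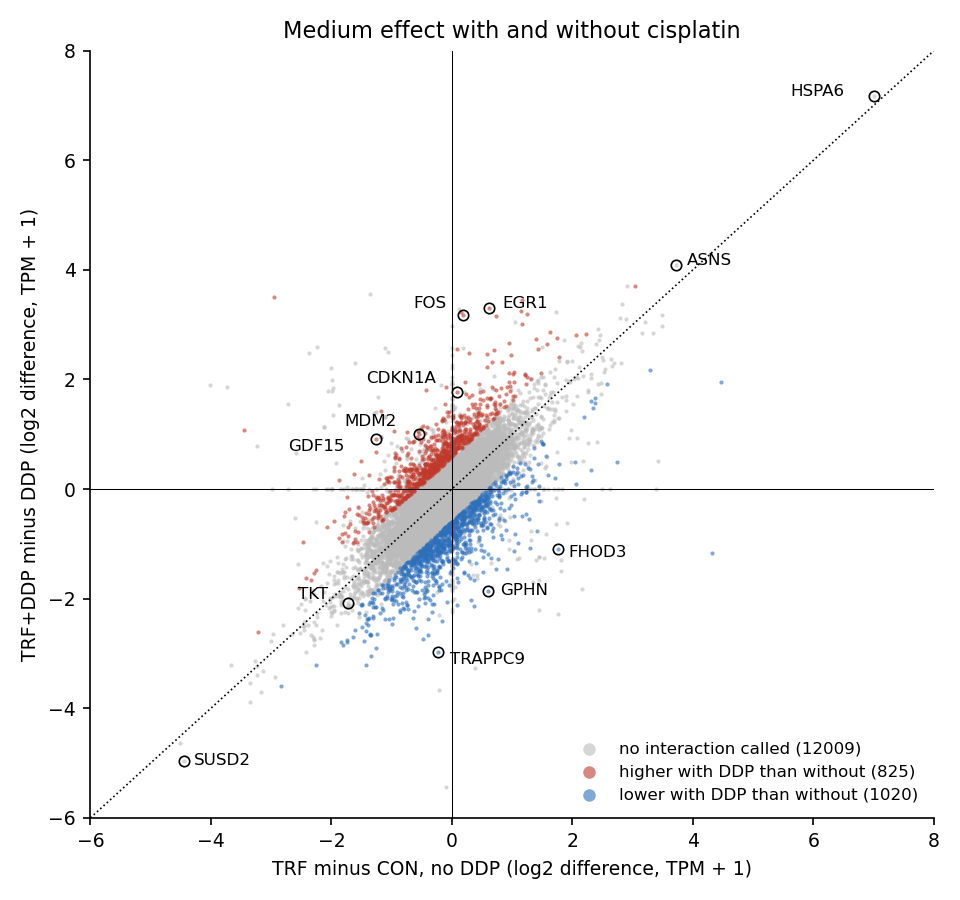
Each point is 1 of the 13854 tested genes, with the medium effect without DDP (x axis, log2 difference) and with DDP (y axis, log2 difference), and colour marks the 825 genes with a positive and the 1020 with a negative interaction. HSPA6, ASNS, TKT and SUSD2 lie near the dotted line of equal effects, CDKN1A, MDM2, GDF15, FOS and EGR1 above it, and TRAPPC9, GPHN and FHOD3 below it.

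Many targets of p53 responded to TRF medium differently with and without DDP. Of 20 arrest and feedback targets, 13 rose (65.0%, against 11.8% of all genes) and 3 fell with DDP (median 0.83), while without DDP 5 rose and 7 fell (median −0.24). The list was written by hand and also holds cyclins. CCNE1 (0.89) and CCNE2 (0.88) are among the 13, and those that fell with DDP were CCNB1 (−0.82), TRIM22 (−0.71) and BTG1 (−0.70). The interaction was positive in 10 of the 20 and negative in 1, against 5.95% and 7.36% of all genes. The study had singled out this pathway on the same samples, so the lists are not independent evidence. CDKN1A, the cyclin-dependent kinase inhibitor p21, measured 279.72, 267.64 and 277.65 TPM in the DDP samples and 960.16, 928.61 and 949.4 TPM in the TRF+DDP samples. The groups were far apart, with little spread inside each, and the difference was 1.78 ± 0.039, adjusted p = 7.8e-12. Without DDP, CDKN1A was at 115.85, 114.35 and 122.38 TPM in CON and 120.89, 129.74 and 125.65 TPM in TRF (0.093 ± 0.039, adjusted p = 0.057), and the interaction was 1.69 ± 0.056, adjusted p = 7.7e-09. MDM2, the ubiquitin ligase that degrades p53, measured 91.86, 97.04 and 85.17 TPM in the DDP samples and 184.02, 184.3 and 184.23 TPM in the TRF+DDP samples (1.01 ± 0.12, adjusted p = 2.2e-05). Without DDP, MDM2 was −0.54 in TRF against CON, short of the call, and its interaction was 1.54 ± 0.18, adjusted p = 7.9e-05. GADD45A, a growth arrest and repair factor, measured 57.75, 62.57 and 59.45 TPM in the DDP samples and 213.33, 228.33 and 216.34 TPM in the TRF+DDP samples (1.85 ± 0.064, adjusted p = 2.5e-10), with an interaction of 1.19 ± 0.091, adjusted p = 2.8e-06.

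GDF15, BTG2, SESN1, SESN2 and BBC3 are targets of p53 that moved in opposite directions. GDF15, a secreted stress cytokine, measured 209.17, 195.17 and 199.62 TPM in the DDP samples and 371.53, 393.01 and 377.23 TPM in the TRF+DDP samples (0.92 ± 0.05, adjusted p = 9.9e-09). Without DDP it went the other way, from 111.5, 111.09 and 110.09 TPM in CON to 41.95, 47.31 and 47.68 TPM in TRF (−1.26 ± 0.05, adjusted p = 1.3e-09), and the interaction was 2.18 ± 0.071, adjusted p = 7.7e-09. BTG2, an antiproliferative transcription cofactor, rose by 1.06 with DDP and fell without it (−0.96). The sestrins SESN1 and SESN2, which restrain mTORC1, had 0.88 and 0.65 with DDP and −0.63 and −0.94 without. BBC3, the pro-apoptotic PUMA, had 0.62 and −0.93, and without DDP sample 3 the rise was 0.56 and short of the call. These 5 genes were taken from the 11 that rose with DDP and fell without it, after their values were seen. PLK2 and SFN, also arrest targets, rose in both settings (1.49 and 1.47 with DDP, 1.38 and 1.37 without), and no interaction was called for them.

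Apoptosis genes gave a mixed picture. Of 20 apoptotic p53 targets, 10 rose and 2 fell (median 0.56, against 0.002 without DDP), and the interaction was positive in 9 and negative in 1. PMAIP1, the BH3-only protein NOXA, measured 10.11, 11.49 and 8.58 TPM in the DDP samples and 52.31, 58.5 and 51.8 TPM in the TRF+DDP samples, with no overlap (2.33 ± 0.14, adjusted p = 1.8e-08). The death receptor TNFRSF10A and its decoy relative TNFRSF10D rose by 1.38 and 2.13, FAS by 1.06, and PIDD1, a caspase-2 platform, by 1.40 (interactions 0.94, 1.10, 0.93 and 1.45). BAK1, a mitochondrial pore protein, measured 32.82, 29.53 and 32.48 TPM in the DDP samples and 77.55, 74.83 and 73.01 TPM in the TRF+DDP samples (1.22 ± 0.054, adjusted p = 1.7e-09), and its interaction of 0.43 was below the fold threshold. BAX, which forms the same kind of pore, went down (−0.84 ± 0.053, adjusted p = 3.3e-08), as did CASP9, the initiator caspase (−1.18), and BIRC5, survivin (−1.07). Over 12 pro-death BCL2 genes 4 rose and 3 fell, over 22 caspase, apoptosome and IAP genes 3 rose and 4 fell (13.6% and 18.2%, near the shares of all genes), and of 4 pro-survival BCL2 genes none was called by limma (2 higher and 0 lower with an unadjusted p below 0.05).

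Among regulators upstream of these targets, the checkpoint kinases CHEK2 (−1.29) and ATM (−0.85), the damage adaptor TP53BP1 (−0.80) and the ubiquitin ligase HUWE1 (−0.63) fell. In the list of repair and metabolic p53 targets 8 of 17 rose and 1 fell (47.1% and 5.88%, against 11.8% and 21.4% of all genes). RRM2 (0.92) and SPHK1 (3.10) were counted among the rises. Other genes that rose were POLH, which copies past cisplatin crosslinks (0.92 ± 0.081, adjusted p = 7.1e-07), TIGAR, which slows glycolysis (1.09), PRKAB1, an AMPK subunit (1.79), and ACER2, a ceramidase (1.36). All 4 of these had positive interactions, of 0.76, 0.87, 1.27 and 1.34. Across 43 genes of crosslink and excision repair, 3 rose and 5 fell (6.98% and 11.6%, both below the 11.8% and 21.4% of all genes), and FANCC (−1.08) and BRCA1 (−0.71) were among those few. Of 21 transport and detoxification genes 3 rose and 7 fell (14.3% and 33.3%), with a list median of 0.066. The list's summed level was 4960 ± 200 TPM in DDP and 5435 ± 419 TPM in TRF+DDP (SD, n = 3). The efflux pumps ABCC4 (−1.92), ABCC1 (−1.40) and ABCC3 (−0.86) and the copper pumps ATP7A (−0.93) and ATP7B (−0.80) were among those that fell.

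**Figure D3:**
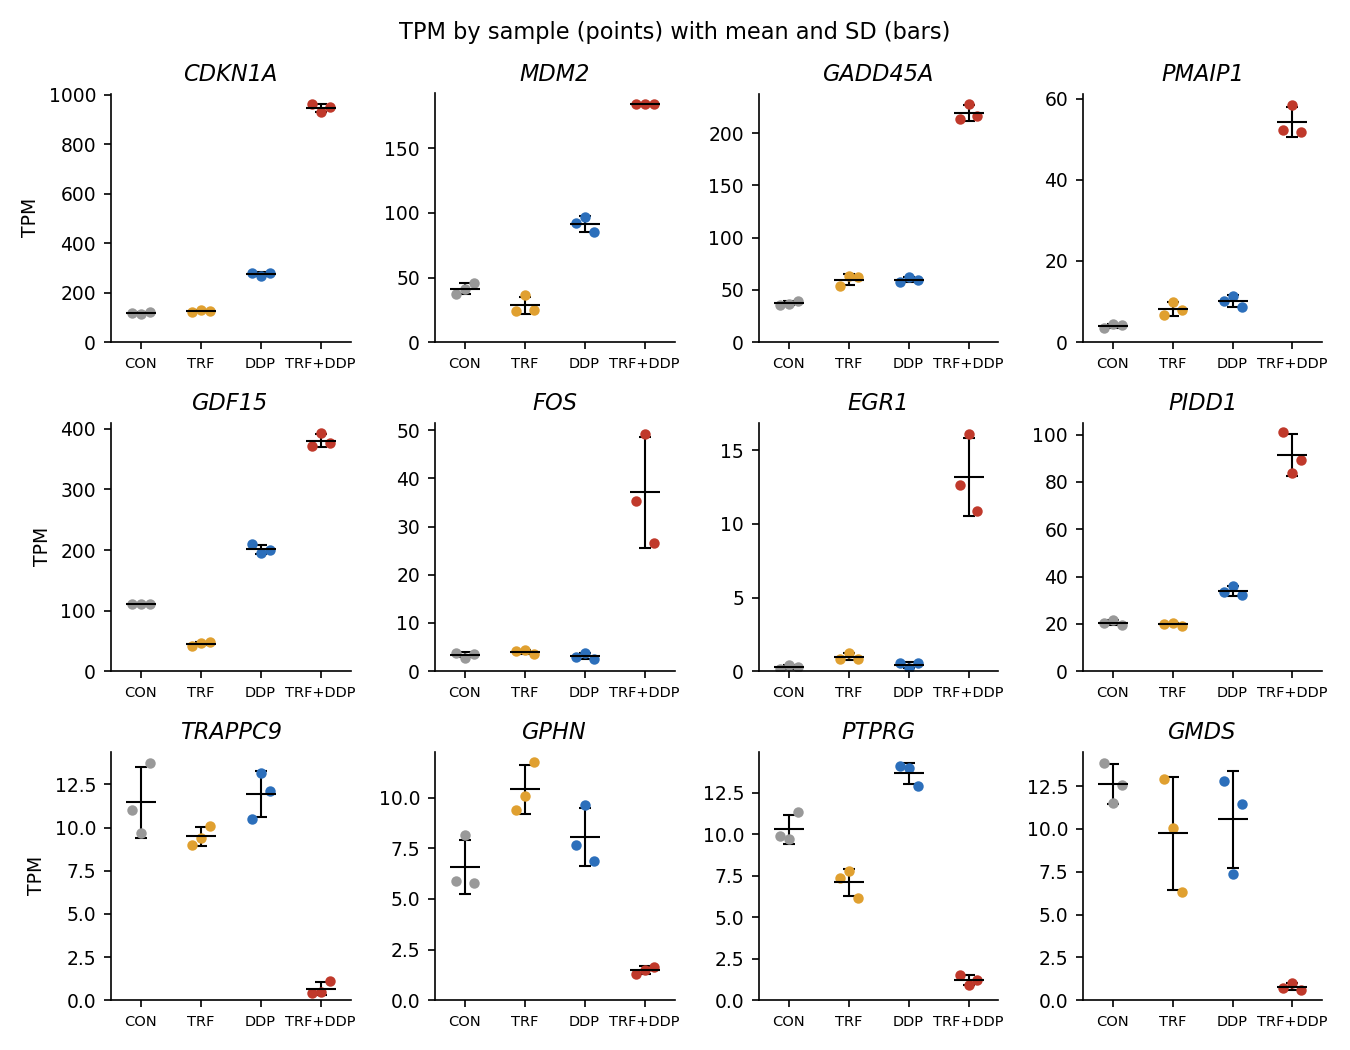
Points are single samples and bars the mean ± SD of 3 (y axis, TPM from 0, each gene on its own scale) in CON, TRF, DDP and TRF+DDP. CDKN1A, MDM2, GADD45A, PMAIP1, GDF15, PIDD1, FOS and EGR1 are highest in TRF+DDP, and TRAPPC9, GPHN, PTPRG and GMDS are lowest in TRF+DDP.

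The largest positive interactions among protein-coding genes included those of early response factors, which are induced within minutes by growth factors or stress. FOS, a subunit of AP-1, measured 2.99, 3.73 and 2.55 TPM in the DDP samples and 35.39, 49.26 and 26.57 TPM in the TRF+DDP samples. The 3 TRF+DDP samples were unequal, and all lay above the DDP samples (3.19 ± 0.19, adjusted p = 1.9e-08). Without DDP, FOS was at 3.83, 2.8 and 3.63 TPM in CON and 4.14, 4.3 and 3.62 TPM in TRF, and the interaction was 3.0 ± 0.26, adjusted p = 8.2e-06. EGR1, a zinc-finger factor driven by serum response factor, measured 0.53, 0.19 and 0.57 TPM in the DDP samples and 12.66, 16.09 and 10.89 TPM in the TRF+DDP samples (interaction 2.68 ± 0.23, adjusted p = 6.7e-06). FOSB, a relative of FOS, measured 0.07, 0.16 and 0.43 TPM in the DDP samples and 10.45, 13.27 and 6.81 TPM in the TRF+DDP samples (interaction 2.43 ± 0.28, adjusted p = 5.9e-05). HBEGF, a ligand of the EGF receptor, measured 2.55, 2.02 and 2.67 TPM in the DDP samples and 29.58, 33.77 and 27.08 TPM in the TRF+DDP samples (interaction 1.94 ± 0.20, adjusted p = 3.3e-05), whereas EGFR, its receptor, fell (−1.81 ± 0.076, adjusted p = 1.1e-09). HIC1, a transcriptional repressor and p53 target, rose by 2.48 with DDP and was at 0.29 without it (interaction 2.19 ± 0.16, adjusted p = 2.4e-06). The stress regulators ATF3 and PPP1R15A, the latter a phosphatase subunit that reverses eIF2alpha phosphorylation, rose by 1.30 and 1.92, with interactions of 1.29 and 1.46. ASNS, asparagine synthetase, went up far more (4.08) but by a like amount without DDP (3.72), and its interaction was 0.36 and was not called. LINC01629, a noncoding RNA, had an interaction of 2.29. RNU6ATAC, CDC26P1 and RPL21P75 also ranked in the 8 largest positive interactions (6.46, 4.52 and 2.59) and SNORA62 was the largest negative one (−5.48), but they are small nuclear or nucleolar RNAs and pseudogenes, which oligo(dT) selection captures poorly or whose reads are shared, and their values are uncertain.

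The promoters of some of the strongest risers are printed because each carries a known response element or a TATA box. The sequences are RefSeq reference promoters, GRCh38.p14, from 250 bases before to 50 bases after the first listed transcript start, written 5′ to 3′ on the gene's strand. Capitals mark the match. This is in HSPA6, an inducible HSP70, a heat shock element of 3 units, in ASNS the C/EBP-ATF element TGATGNAA, in EGR1 serum response elements (CArG boxes), in FOS the TATA box TATAAA, and in SPHK1, sphingosine kinase, the AP-1 site TGANTCA.
HSPA6, chr1:161524290-161524589 (plus strand): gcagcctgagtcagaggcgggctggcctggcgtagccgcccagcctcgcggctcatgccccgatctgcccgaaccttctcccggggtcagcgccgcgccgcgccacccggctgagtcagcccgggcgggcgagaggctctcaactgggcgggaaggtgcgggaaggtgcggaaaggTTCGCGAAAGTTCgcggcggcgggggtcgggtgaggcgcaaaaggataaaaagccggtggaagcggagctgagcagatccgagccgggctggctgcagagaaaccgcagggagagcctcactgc
ASNS, chr7:97872359-97872658 (minus strand): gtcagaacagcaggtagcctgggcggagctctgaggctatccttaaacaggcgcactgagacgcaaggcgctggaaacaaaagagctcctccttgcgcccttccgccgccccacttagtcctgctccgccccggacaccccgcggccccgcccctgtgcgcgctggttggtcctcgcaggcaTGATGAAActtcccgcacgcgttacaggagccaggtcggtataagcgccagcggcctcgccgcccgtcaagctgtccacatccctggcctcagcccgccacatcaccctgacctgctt
EGR1, chr5:138465229-138465528 (plus strand): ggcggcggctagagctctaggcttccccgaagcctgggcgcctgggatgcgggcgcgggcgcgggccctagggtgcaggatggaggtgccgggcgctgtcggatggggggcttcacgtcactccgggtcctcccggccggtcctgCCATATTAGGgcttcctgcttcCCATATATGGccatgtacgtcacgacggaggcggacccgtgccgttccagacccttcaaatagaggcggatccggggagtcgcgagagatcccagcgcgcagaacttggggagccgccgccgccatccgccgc
FOS, chr14:75278578-75278877 (plus strand): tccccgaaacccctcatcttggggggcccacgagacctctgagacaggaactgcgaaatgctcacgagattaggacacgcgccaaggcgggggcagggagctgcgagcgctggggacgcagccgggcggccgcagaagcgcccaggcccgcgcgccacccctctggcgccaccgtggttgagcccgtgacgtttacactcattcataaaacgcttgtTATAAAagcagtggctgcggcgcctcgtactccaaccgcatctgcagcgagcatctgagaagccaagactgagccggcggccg
SPHK1, chr17:76382954-76383253 (plus strand): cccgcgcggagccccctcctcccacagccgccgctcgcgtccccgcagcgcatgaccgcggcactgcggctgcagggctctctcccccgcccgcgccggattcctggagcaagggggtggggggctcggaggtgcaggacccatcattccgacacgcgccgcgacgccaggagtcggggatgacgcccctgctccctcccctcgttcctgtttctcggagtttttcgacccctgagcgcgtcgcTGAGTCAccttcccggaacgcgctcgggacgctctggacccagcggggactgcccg
These are the genes at 7.18, 4.08, 3.31, 3.19 and 3.10 in TRF+DDP against DDP. Of 12969 tested genes with a symbol, 10083 had a promoter sequence, and 50 of these rose over 4-fold. The AP-1 site was in 4.40% of all 10083 promoters and in 22% of those 50, and TATAAA in 5.11% and 22%. GAANNTTC, 2 units of the heat shock element, was in 4.52% and 14%, and TGATGNAA in 1.45% and 6%. The CCAAT box went the other way, in 36.55% and 26%, and the E-box CACGTG was in 10.25% and 12%. The cAMP response element TGACGTCA was in 3.49% and 8%. These motifs were searched on both strands and GAANNTTC overlaps every match of the 3-unit element. The 3-unit heat shock element was in 0.298% of all promoters and the CArG box in 1.0%, and each was in 2.00% of the 50, that is, in 1 gene. The 110 genes that fell over 4-fold had the AP-1 site in 4.55% of their promoters, TATAAA in 7.27%, GAANNTTC also in 7.27% and TGATGNAA in 1.82%. These shares describe letters in the window, with no test, and a match is no evidence of binding.

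Long genes fell and short genes rose more often, and the contrast was steeper with DDP than without. Span, the distance from a gene's first to its last annotated base with introns, was taken for 11874 protein-coding genes and cut into deciles. In the shortest decile (up to 5.95 kb), 241 of 1188 genes (20.3%) rose and 163 (13.7%) fell, a median of 0.084. In the fifth decile 13.8% rose and 16.8% fell, in the ninth 3.45% and 32.9%. In the longest decile (158 kb and more), 31 of 1188 (2.61%) rose and 677 (57.0%) fell, a median of −0.72. Without DDP the longest decile had 96 genes higher and 288 lower and a median of −0.25. The interaction was negative in 463 of its genes (39.0%, against 2.69% of the shortest decile), which is 45.4% of all negative interactions.

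The pattern was present in each sample. Relative to the mean of the DDP samples, the median gene of the longest decile stood at −0.713, −0.714 and −0.752 (log2) in the TRF+DDP samples, at −0.0291, 0.0404 and −0.0126 in the DDP samples, at −0.400, −0.258 and −0.412 in the TRF samples and at −0.103, −0.0945 and −0.0933 in the CON samples. The TRF+DDP samples were thus lowest and the DDP samples not below CON. The summed level of these genes was 25558 to 26864 TPM in DDP and 15489 to 15990.1 TPM in TRF+DDP. Across the 11874 genes the Spearman correlation of the difference with span was −0.32 with DDP and −0.14 without, and with the median annotated transcript length, which TPM divides out, −0.018 with DDP. The longest decile kept its lower median in each tertile of genes by mean level (−0.70, −0.76 and −0.76) and in each tertile by transcript length (−0.68, −0.73 and −0.75). The number of exons moved with span (lower in 15.3% of the decile with the fewest and 37.7% of the decile with the most), and its part in the result was not tested.

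**Figure D4:**
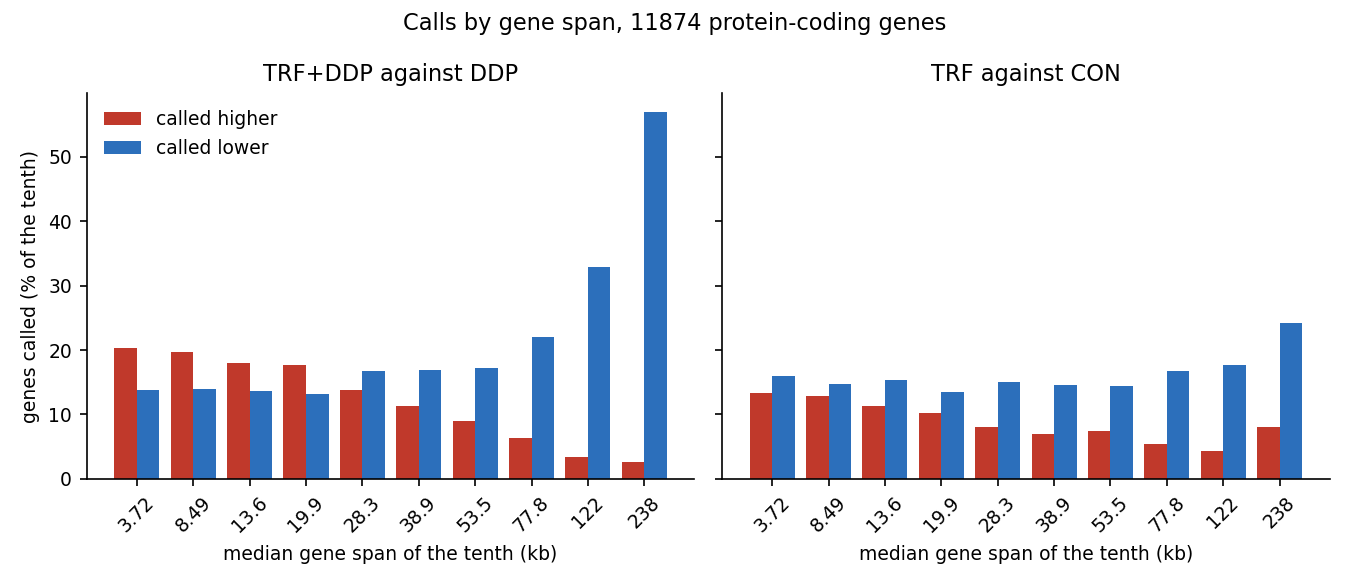
Protein-coding genes are cut into deciles by span (x axis, median kb of the decile) and bars give the percent called higher and lower (y axis) in TRF+DDP against DDP (left) and TRF against CON (right). With DDP the share called lower climbs from 13.7% in the shortest to 57.0% in the longest decile, and without DDP it is 24.2% in the longest.

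The long genes described next were named mainly for the largest negative interactions or opposite calls. Their values are therefore not typical of the longest decile, whose median was −0.72, with 57.0% of its genes called lower. TRAPPC9, a subunit of a vesicle tethering complex that spans 731 kb, measured 10.5, 13.14 and 12.14 TPM in the DDP samples and 0.44, 0.47 and 1.11 TPM in the TRF+DDP samples (−2.97 ± 0.16, adjusted p = 6.9e-09). Without DDP it was at −0.24, and the interaction was −2.73 ± 0.22, adjusted p = 4.2e-06. PTPRG, a receptor tyrosine phosphatase of 736 kb, measured 14.1, 13.96 and 12.92 TPM in the DDP samples and 1.52, 0.91 and 1.24 TPM in the TRF+DDP samples (interaction −2.25 ± 0.16, adjusted p = 2.1e-06). GMDS, which makes GDP-fucose and spans 622 kb, measured 12.81, 7.39 and 11.46 TPM in the DDP samples and 0.72, 1.03 and 0.61 TPM in the TRF+DDP samples (interaction −2.28 ± 0.32, adjusted p = 3.2e-04). In all 3 genes the highest TRF+DDP sample was below the lowest DDP sample. GALNT18, an O-glycosylation enzyme of 351 kb, changed by −2.03 with DDP and 0.32 without. GPHN, the scaffold gephyrin (674 kb), and FHOD3, an actin regulator (482 kb), were called in opposite directions, at −1.86 and −1.09 with DDP and 0.60 and 1.76 without. The same held for the sortilin relative SORCS2 (−1.07 and 1.30), TSPAN18 (−1.13 and 1.03), the cadherin CDH4 (−0.99 and 1.10), ANKRD44 (−1.27 and 0.77) and ABTB3 (−0.76 and 1.41). SPOCK1, a testican, was the exception in this set, since its negative interaction (−2.26) came from a rise without DDP (2.75) while it was at 0.49 with it. The 18 genes that fell with DDP and rose without it had a median span of 332 kb, the 11 with the opposite pattern 11.9 kb, and all tested genes 29.3 kb. Some long genes rose, and NAV3, a microtubule-associated protein of 888 kb, rose the most of the 31 (3.11 ± 0.631 TPM in DDP and 19.8 ± 3.22 TPM in TRF+DDP, chosen after its value was seen).

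In lists of matrix, adhesion and guidance genes 55.2% to 69.6% of the tested members fell, against 21.4% of all genes. Of 23 collagen and matrix genes 16 fell (69.6%, against 21.4% of all genes) and 1 rose (median −1.37, median span 98.7 kb), with a negative interaction in 9. COL4A2, a basement membrane collagen, measured 351.53, 334.81 and 342.4 TPM in the DDP samples and 87.73, 82.97 and 72.8 TPM in the TRF+DDP samples (−2.07 ± 0.071, adjusted p = 2.4e-10, interaction −0.74 ± 0.10, adjusted p = 2.0e-04). COL18A1, the source of endostatin, fell to 32.6 ± 1.80 TPM from 165 ± 4.24 TPM, and LTBP1, FBN1 and COL12A1 changed by −2.84, −2.17 and −2.16. COL17A1, a hemidesmosome collagen, rose (2.13 ± 0.14, adjusted p = 6.4e-08). The fibroblast genes DCN, LUM, FAP and COL1A2 stayed under 1 TPM in all 6 samples. The list's summed level was 2098 ± 35.5 TPM in DDP and 785 ± 43.2 TPM in TRF+DDP. Of 17 integrins and laminins 10 fell, such as LAMB1 (−2.08), LAMA3 (−2.06), ITGB4 (−1.93) and ITGB5 (−1.80), and LAMB3 rose (1.44). Of 29 semaphorins, ephrins and guidance receptors 16 fell and 4 rose. NRP1, a co-receptor for semaphorins and VEGF, measured 105.37, 114.94 and 103.72 TPM in the DDP samples and 19.8, 19.18 and 17.02 TPM in the TRF+DDP samples (−2.47 ± 0.068, adjusted p = 4.0e-11), and ROBO1, the receptor of SLIT3, changed by −2.36.

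Wnt genes gave 10 lower and 3 higher of 27 (37.0% and 11.1%), with the receptors LGR4 (−2.72) and LRP5 (−1.44) and the feedback gene AXIN2 (−1.40) lower and the secreted inhibitor DKK1 higher (1.60 ± 0.057, adjusted p = 2.9e-10). TGF-beta and BMP genes gave 11 lower and 3 higher of 30 (36.7% and 10.0%). TGFBR2, the type II TGF-beta receptor, measured 122.1, 125.37 and 119.03 TPM in the DDP samples and 37.68, 34.46 and 36.45 TPM in the TRF+DDP samples (−1.73 ± 0.052, adjusted p = 7.5e-11, interaction −1.01 ± 0.073, adjusted p = 2.2e-06), TGFBR3 and SMAD6 changed by −1.94 and −1.85, and ID2, an inhibitor of basic helix-loop-helix factors, rose (1.63). Of 57 histone acetylation and methylation enzymes, which had a median span of 55.4 kb, 19 fell and 1 rose (33.3% and 1.75%, against 21.4% and 11.8% of all genes). HDAC4 had the largest fall (−2.06, interaction −1.30 ± 0.15, adjusted p = 5.9e-05), and SIRT6 was the gene that rose (1.11).

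Falls were also seen in other lists. Interferon-stimulated genes, with a median span of 13.4 kb, gave 11 lower and 2 higher of 35 (31.4% and 5.71%), and 9 negative interactions. IFITM3, a membrane protein that blocks viral entry, measured 249.21, 204.67 and 219.93 TPM in the DDP samples and 70.89, 52.72 and 63.2 TPM in the TRF+DDP samples (−1.84 ± 0.17, adjusted p = 5.4e-06), and IFITM1 and IFITM2 changed by −1.75 and −1.43. These 3 genes are close paralogs. IFIT1 and GBP2 had −1.37 and −2.01, with interactions of −0.86 and −0.90. Of 8 secreted proteins typical of liver 6 fell (75.0%, against 21.4% of all genes) and none rose by limma (1 at an unadjusted p under 0.05). C3, the central complement component, fell from 147 ± 8.15 to 23 ± 5.39 TPM, and VTN, vitronectin, changed by −2.73. Clock genes, with a median span of 35.0 kb, gave 6 lower of 18 (33.3%, against 21.4% of all genes) and none higher by limma (4 at an unadjusted p under 0.05). NPAS2, a partner of BMAL1, measured 50.68, 58.76 and 63.26 TPM in the DDP samples and 23.7, 16.8 and 16.5 TPM in the TRF+DDP samples and was at 0.27 without DDP (interaction −1.83 ± 0.18, adjusted p = 2.5e-05). Host genes of snoRNAs went the other way, with 5 of 22 higher (22.7%, against 11.8% of all genes), none lower at the limma thresholds (5 at an unadjusted p under 0.05), and 6 positive interactions. SNHG1 rose with DDP (0.99) and was at 0.15 without, and SNHG15 measured 11.84, 13.97 and 11.38 TPM in the DDP samples and 59.18, 56.58 and 57.01 TPM in the TRF+DDP samples (2.13 ± 0.094, adjusted p = 1.6e-09).

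**Figure D5:**
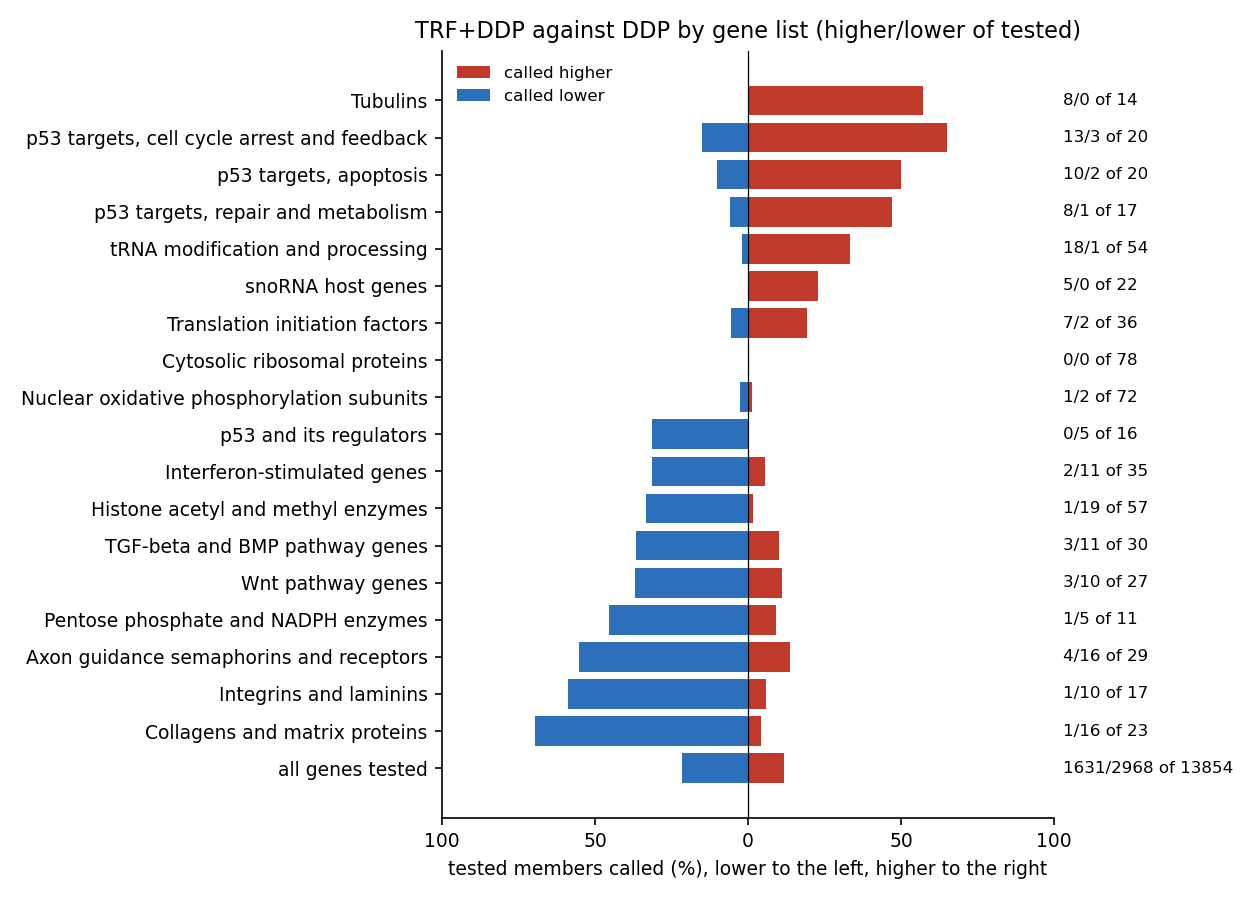
Bars show, for the tested genes of each list, the percent called lower (left) and higher (right) in TRF+DDP against DDP, with the counts beside them and all 13854 genes at the bottom (11.8% higher, 21.4% lower). Tubulins and p53 targets extend to the right, collagens, integrins and guidance genes to the left, and ribosomal protein genes have no bar.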

How the data were processed

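Messenger RNA was selected with oligo(dT) beads from A549/DDP cells in 4 groups of 3 samples and sequenced. The study's methods describe read trimming with SeqPrep and sickle, alignment with HISAT2 and assembly with StringTie. They speak of A549 cells where the labels give A549/DDP. Versions, genome build, strand and the tool that made the values are not stated in the labels or the methods. The deposited table holds TPM values, computed by the authors, which are shares of a sample's transcripts and hold no read depth. Its columns of group means are the authors' means and were not used.

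Values were tested as log2(TPM + 1) for the genes averaging 1 TPM or more across all 12 samples, with limma 3.58.1 (R 4.3.3; moderated test, trend and robust variances), 1 fit of all 4 groups and Benjamini-Hochberg adjustment over all 13854 genes. Calls needed an adjusted p below 0.05 together with more than a 1.5-fold difference, for the interaction too. The study's own count test could not be repeated on TPM. On simulated data with these genes the fit recovered 47, 47, 50 and 50 of 50 changed genes at log2 changes of 0.8, 1, 1.5 and 2 in TRF+DDP against DDP, and called 4 unchanged genes. The simulated noise was normal and independent, and the changed genes were drawn only from those of higher mean level. Recovery of changes in low genes was therefore not assessed. Spans, biotypes and exons came from GENCODE release 29 and promoters from RefSeq.

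The samples, gene lists and rules were chosen with earlier results of these data known. Genes named were the 12 largest TPM gains and 12 largest losses among called genes with a symbol, ranks 1 to 25 by fold in each direction (mean of at least 10 TPM in the higher group, no overlap), of which mainly ranks 11 to 25 are described, the 8 largest interactions in each direction at 10 TPM or more, the leading called members of lists, mRNAs the study names, and the 8 largest opposite calls. Some genes these rules name are not reported here. Alternatives were 3 other scalings, limma without trend, 2 other filters, a pseudocount of 0.1, 2 other thresholds, the replicate number as a block, a fit of the 2 groups, and leaving out each sample.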

Additional observations from a re-analysis of the deposited data

Results flagged for a closer look

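Of the genes named here, 81 had a called interaction in limma, that is, their TRF medium effect differed between cells with DDP and without it. The values below are log2 differences, the effect with DDP minus the effect without it, and a positive value means that the level in TRF medium was higher, relative to normal medium, with DDP than without. Among p53 targets and apoptosis genes, the values were GDF15 (2.18), BTG2 (2.02), CDKN1A (1.69), SESN2 (1.59), BBC3 (1.55), MDM2 (1.54), SESN1 (1.51), PMAIP1 (1.49) and PIDD1 (1.45). Smaller ones in this set were ACER2 (1.34), PRKAB1 (1.27), GADD45A (1.19), TNFRSF10D (1.10), TNFRSF10A (0.94), FAS (0.93), TIGAR (0.87) and POLH (0.76). Other positive values, early response factors among them, were FOS (3.0), EGR1 (2.68), FOSB (2.43), LINC01629 (2.29), HIC1 (2.19), HBEGF (1.94), TMEM40 (1.85), TM7SF2 (1.5) and PPP1R15A (1.46). The remaining ones were KLF4 (1.34), ATF3 (1.29), MT-RNR1 (1.14), ID2 (1.11), PGF (1.01), SNHG1 (0.84), SQLE (0.82) and CCN1 (0.67). 

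Among genes in the longest decile by span, the negative values were FHOD3 (−2.85), TRAPPC9 (−2.73), GPHN (−2.45), SORCS2 (−2.37), GALNT18 (−2.35), GMDS (−2.28), SPOCK1 (−2.26), PTPRG (−2.25) and ABTB3 (−2.17). They went on with TSPAN18 (−2.16), CDH4 (−2.10), ANKRD44 (−2.04), NPAS2 (−1.83), CAMK1D (−1.80), SLIT3 (−1.72), PCBP3 (−1.63), HDAC4 (−1.30) and ROBO1 (−1.26). The smallest of them were PDGFD (−1.06), LTBP1 (−1.04), FARP1 (−1.03), FBN1 (−1.01), TGFBR3 (−1.0), DEPTOR (−0.99), FANCC (−0.96), EIF4G3 (−0.83), EGFR (−0.83), COL4A2 (−0.74) and ABCC1 (−0.62). Negative values in other genes were COL1A1 (−1.05), TGFBR2 (−1.01), BCO1 (−0.97), CHI3L2 (−0.95), AKR1B1 (−0.91), GBP2 (−0.90), SQSTM1 (−0.87), IFIT1 (−0.86) and COL18A1 (−0.86). To these came BRCA1 (−0.74), PC (−0.72), BMAL1 (−0.70), DKK1 (−0.70) and BIRC5 (−0.61). The values of RNU6ATAC (6.46), CDC26P1 (4.52), RPL21P75 (2.59) and SNORA62 (−5.48) belong to small RNAs and pseudogenes and are uncertain. The groups hold 3 samples each, too few to test for single outlying samples.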

How the results depend on the processing

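The 1631 genes higher and 2968 lower in TRF+DDP against DDP stayed within 1.5 times these counts under the other scalings, filters, pseudocount, limma without trend, the fit of the 2 groups and the replicate block. Thresholds moved them. A limma test against a fold of 1.5 gave 831 higher and 1617 lower, and an adjusted p alone 3740 and 5316. The interaction went from 1845 genes to 313 (102 positive, 211 negative) with the first and to 4129 (1868 and 2261) with the second, and TRF against CON from 3540 to 1474 and 8412. With no filter, 20625 genes had an interval inside 1.5-fold, in place of 5826, since more genes near 0 were tested. Leaving out 1 sample gave 1587 to 1675 higher, 2865 to 3020 lower, 1750 to 1992 interactions (736 to 1008 positive, 961 to 1050 negative) and 653 to 688 lower genes in the longest decile. The 677 lower genes of that decile became 611 under TMM-style scaling (median −0.62) and 561 under quantile normalization (median −0.54). In the test against a fold of 1.5 they became 478.

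Taken over all tested genes, same-numbered samples of DDP and TRF+DDP did not deviate together (correlations of −0.012, −0.026 and 0.0079 for numbers 1, 2 and 3). The numbers were taken as names, but some list sums did move with them. In DDP, TRF and TRF+DDP, number 2 was highest for SR proteins and CLK kinases (2537.84, 2411.28 and 2424.25 TPM). It was lowest there for cisplatin transport and detoxification (4740.08, 5022.3 and 4954.41 TPM), though highest in CON (4409.06 TPM). What the numbers stand for is not stated. With the replicate number as a block 1630 genes were higher, 2960 lower and 1840 had an interaction, and of the genes named here RNU6ATAC and RPL21P75 lost their interaction call. TMM-style scaling and quantile normalization moved the median gene by 0.1013 and 0.1109 and gave 2122 higher with 2390 lower and 2179 with 2273 (47.03% and 48.94% higher). The list medians of glycolysis, TCA and oxidative phosphorylation genes turned positive under TMM-style scaling (0.013, 0.046 and 0.12) and stayed negative under quantile normalization (−0.094, −0.074 and −0.039), and that of crosslink repair genes turned positive under both (0.050 and 0.012).

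No value of a named gene reversed. Of 3110 values of their differences under alternatives, 39 lost the call and 17 gained it, 21 of the losses in the test against a fold of 1.5. Of 1761 interaction values 71 lost the call. TMM-style scaling ended the call for MT-CO3 (−0.54), PSAP (−0.58), PGD (−0.47), HUWE1 (−0.51) and SCD (−0.54), and quantile normalization for MT-CO3 (−0.48), MT2A (0.57), S100A11 (0.58), ATP7B (−0.56) and ABTB3 (−0.52). Without TRF+DDP sample 3, HUWE1 (−0.58), PGD (−0.58) and MT2A (0.54) were not called, nor were the interactions of ABCC1 (−0.55) and PC (−0.50), and without DDP sample 3 BBC3 (0.56) was not. BIRC5 lost its interaction call without TRF sample 3 (−0.58). The cause was not tested. TPM without counts give no counting error, so low genes rest on the spread of 3 samples.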

Other observations

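SREBF1, the transcription factor of fatty acid and sterol synthesis, measured 149.17, 154.22 and 160.76 TPM in the DDP samples and 52.99, 51.82 and 50.68 TPM in the TRF+DDP samples (−1.56 ± 0.066, adjusted p = 1.2e-09), and the groups did not overlap. Among 26 genes of cholesterol synthesis and uptake, 6 fell and 1 rose (23.1% and 3.85%, against 21.4% and 11.8% of all genes), and 2 fell under TMM-style scaling and 3 under quantile normalization. The gene that rose was SQLE, squalene epoxidase, which had 37.6 ± 0.362 TPM in DDP and 66.9 ± 1.28 TPM in TRF+DDP and was at −0.0092 without DDP (interaction 0.82 ± 0.065, adjusted p = 3.5e-06). TM7SF2, a sterol reductase, fell by less with DDP (−0.97) than without it (−2.47, interaction 1.5 ± 0.16, adjusted p = 3.5e-05). Of 15 fatty acid synthesis genes 3 rose, FASN, fatty acid synthase, among them (0.71), and 4 fell, such as the desaturase SCD (−0.66).

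DDIT4, which restrains mTORC1, measured 556.62, 553.48 and 546.99 TPM in the DDP samples and 145.75, 135.47 and 141.62 TPM in the TRF+DDP samples (−1.96 ± 0.042, adjusted p = 6.0e-12), and it fell about as far without DDP (−1.86). DEPTOR, another inhibitor of mTOR, fell (−1.99), and PRKAB2, an AMPK subunit, rose (1.28). Of 38 autophagy genes 5 rose and 9 fell (13.2% and 23.7%, near the 11.8% and 21.4% of all genes). MAP1LC3B, which coats the autophagosome, rose (1.17), whereas its relative GABARAPL1 fell (−1.44), as did the kinase ULK1 (−0.85). SQSTM1, an autophagy receptor, was at 0.15 with DDP and rose without it (1.02, interaction −0.87 ± 0.054, adjusted p = 1.0e-06). Lysosome genes gave 8 higher and 14 lower of 55 (14.6% and 25.4%, also near those of all genes), with the proteases CTSL higher (0.65) and CTSD lower (−0.74). Among the tested targets of SRF and YAP, 4 rose and 5 fell, with a list median of 0.063. The share that rose was above the 11.8% of all genes, and the share that fell was near their 21.4%. The list's summed level was 12025 ± 589 TPM in DDP and 10394 ± 325 TPM in TRF+DDP (SD, n = 3). Those that fell were ACTA2 (−0.92), TPM4 (−0.71), TPM1 (−0.64), VCL (−0.62) and MYH9 (−0.61). CCN1 and CCN2, secreted matrix-associated proteins, were among those that rose (1.69 and 2.04), CCN1 by more with DDP than without (1.02, interaction 0.67). Of 337 lincRNA genes 26 rose and 103 fell (7.7% and 30.6%, against 11.8% and 21.4% of all genes).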
